A study of Homo sapiens with 6 samples.

Results

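The gene for progranulin, GRN, was described together with 7 other lysosomal genes, PSAP, CTSA, CTSB, CTSD, LAMP1, LAMP2 and HEXA, in colorectal cancer cells with and without knockdown of PLEK2. The 8 genes were picked by symbol from the 17047 genes of the expression table, and all 8 had enough counts to enter the fit over 12959 genes. GRN had been selected on its lower counts in the knockdown libraries of this same comparison, and the other 7 genes were set beside it with that result known. The changes of all 8 genes are therefore given as a description, with no test.

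RNA was sequenced from 6 libraries of HCT116, an established human colorectal carcinoma cell line. In the shNC group, 3 libraries came from cells transduced with a non-targeting short hairpin RNA (shRNA). In the PLEK2 knockdown group, 3 libraries came from cells transduced with an shRNA against PLEK2, the gene for pleckstrin-2, so that cells of both groups carried a viral vector and a hairpin. The comparison asked which transcripts differ once PLEK2 is depleted. A single PLEK2 shRNA is described, so that an effect of losing PLEK2 and an effect of that hairpin cannot be told apart. Neither the time between transduction and harvest nor separate cultures for the libraries of a group are stated, so that the SDs and p-values measure the spread between these libraries, which may be technical. In cells sequenced in bulk, fewer cells with a transcript and less of it in every cell cannot be told apart.

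Library totals lay between 14377532 and 15602732 estimated counts. Replicate 1 stood apart from replicates 2 and 3 in both groups, with a chi-square per gene of 14.3 to 20.2 against them, while replicates 2 and 3 differed by 4.70 in the shNC group and by 3.06 in the knockdown group. Libraries with the same number deviated together, and changes are therefore also given within the 3 same-numbered pairs. PLEK2, the targeted gene, was at 86.0, 72.6 and 82.9 CPM (counts scaled to a common library size with TMM factors) in the shNC libraries and at 16.0, 32.2 and 34.9 in the knockdown libraries. Its residual level within pairs was thus 18.6%, 44.3% and 42.2%, lowest in pair 1. The log2 fold change of PLEK2 was -1.54 (SE 0.244, adjusted p = 0.684 by edgeR's quasi-likelihood test) and -1.57 (SE 0.165, adjusted p = 0.00106) with the replicate number as a block. Of 6 epithelial markers, 5 were above 1 FPKM (counts scaled by transcript length and library total) in every library. The remaining marker, VIL1, was at 0 to 0.08 FPKM. The summed level of the 6 was 5050 to 5810 FPKM in shNC and 4210 to 5370 FPKM in knockdown libraries. KRT8, KRT18, KRT19 and CDH1 were lower in the knockdown of every pair, at fitted log2 fold changes of -0.21, -0.23, -0.20 and -0.32, while EPCAM was at 0.00095, and the part of these differences in the results for GRN was not tested. Of the myeloid markers in the table, 0 of 6 were above 1 FPKM in every library, and their summed level was 1.22 to 1.49 FPKM in shNC and 0.99 to 1.54 FPKM in knockdown libraries. Of the 4 fibroblast markers in the table, COL1A1 alone passed 1 FPKM in every library, and their summed level was 4.66 to 6.02 FPKM in shNC and 4.36 to 4.98 FPKM in knockdown libraries.

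Progranulin is a secreted glycoprotein that also reaches the lysosome, either through the sorting receptor sortilin or in complex with prosaposin, and is cut there into granulin peptides. Haploinsufficiency of GRN causes frontotemporal dementia, its complete loss causes a lysosomal storage disease, and many carcinomas make progranulin as a growth factor. Many lysosomal genes are controlled together by the factors TFEB and TFE3, which bind E-boxes near gene starts. The other 7 genes cover the main kinds of lysosomal protein, namely a precursor of lipid-binding activators (PSAP), proteases (CTSA, CTSB and CTSD), a glycosidase (HEXA) and membrane glycoproteins (LAMP1 and LAMP2).

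The promoters are shown because they differ in the motifs that TFEB and its relatives are known to bind, a feature that the choice of genes did not use. Windows from 250 bases before to 50 after the gene start that RefSeq gives (GRCh38.p14) were found for 4 of the 8 genes. For GRN, CTSA and CTSD this start lies inside the GENCODE gene whose position is given with the values. The GRN window thus lies partly inside that gene, and the CTSA and CTSD windows lie wholly inside theirs. Capitals mark CACGTG in CTSA, CTSD and LAMP1. Among forms of the E-box this one was searched, and it alone is meant by E-box below. In GRN they mark TCACATGA, a related (M-box-like) motif that was added to the search after the GRN window had been read. The windows are chr17:44345052-44345351 on the plus strand for GRN, chr20:45891085-45891384 on the plus strand for CTSA, chr11:1763878-1764177 on the minus strand for CTSD and chr13:113296989-113297288 on the plus strand for LAMP1.
GRN: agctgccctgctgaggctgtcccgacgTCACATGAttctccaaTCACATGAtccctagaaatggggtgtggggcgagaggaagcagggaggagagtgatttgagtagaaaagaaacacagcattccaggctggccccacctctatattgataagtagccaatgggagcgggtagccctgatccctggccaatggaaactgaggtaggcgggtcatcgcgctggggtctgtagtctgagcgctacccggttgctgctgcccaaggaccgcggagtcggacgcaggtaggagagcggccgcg
CTSA: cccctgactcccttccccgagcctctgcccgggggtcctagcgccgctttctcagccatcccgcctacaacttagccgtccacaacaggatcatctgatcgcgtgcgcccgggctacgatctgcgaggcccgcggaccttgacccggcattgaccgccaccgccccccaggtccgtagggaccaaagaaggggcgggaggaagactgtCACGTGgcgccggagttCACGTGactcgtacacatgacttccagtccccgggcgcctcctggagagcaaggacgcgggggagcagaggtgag
CTSD: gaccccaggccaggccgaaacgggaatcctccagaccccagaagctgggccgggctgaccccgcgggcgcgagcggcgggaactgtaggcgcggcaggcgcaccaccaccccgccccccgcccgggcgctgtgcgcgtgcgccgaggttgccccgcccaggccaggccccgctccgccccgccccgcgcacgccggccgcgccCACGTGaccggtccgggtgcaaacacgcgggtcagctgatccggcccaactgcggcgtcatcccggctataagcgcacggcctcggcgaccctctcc
LAMP1: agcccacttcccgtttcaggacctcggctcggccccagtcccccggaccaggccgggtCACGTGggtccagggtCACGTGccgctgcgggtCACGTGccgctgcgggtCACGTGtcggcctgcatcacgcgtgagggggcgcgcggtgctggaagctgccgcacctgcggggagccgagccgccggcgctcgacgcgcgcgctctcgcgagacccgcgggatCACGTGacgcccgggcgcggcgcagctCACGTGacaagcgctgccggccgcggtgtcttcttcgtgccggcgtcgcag

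The LAMP1 window held 6 E-boxes, at -192, -176, -159, -142, -28 and -1 from the gene start, and those at -28 and -1 lay within the longer form TCACGTGA. CTSA held E-boxes at -42 and -25, the second of them in the longer form, and CTSD held 1 at -47. GRN held no CACGTG in this window and had TCACATGA at -223 and -207. Over 13387 promoters of genes in the expression table, 9.37% held CACGTG, 1.59% held TCACGTGA, which contains CACGTG, and 0.859% held TCACATGA, with both strands searched. Over the promoters of 95 other lysosomal genes the shares were 26.3%, 14.7% and 6.32%. A match of letters is not a binding site, and a window without them says nothing of the rest of the gene.

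GRN was lower in all 3 knockdown libraries than in any shNC library. GRN (NCBI Gene 2896; chr17:44345246-44353106, plus strand, GRCh38) overlaps no other annotated gene, and its counts were whole in every library. The shNC libraries held 2390, 2685 and 2940 counts, and the knockdown libraries 1038, 1854 and 1834. After scaling, these were 156, 190 and 204 CPM in shNC and 66.0, 122 and 121 CPM in knockdown, with means of 183 ± 24.6 and 103 ± 32.1 CPM (SD, n = 3 each). The groups did not overlap, which held, with the knockdown lower, for 5.12% of all genes tested. Knockdown replicate 1 was far below the other two knockdown libraries, and shNC replicate 1 was also the lowest of its group.

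Within pairs, GRN in the knockdown library was at 42.4%, 64.3% and 59.6% of the shNC library. On the log2 scale the ratios were -1.24 ± 0.0536, -0.64 ± 0.0436 and -0.75 ± 0.0429, where the error is the counting error alone. The gap between pair 1 and the other pairs was larger than counting error, and pair 1 was also the pair with the least PLEK2 left. The fitted log2 fold change was -0.83 (SE 0.217), a level 0.563 times that of shNC, and with the replicate block it was -0.87 (SE 0.0892), or 0.549 times. Without replicate 1 in either group, the fit with the block gave -0.69 (SE 0.0548). Leaving out knockdown replicate 1 alone gave -0.59 without the block, and the other single omissions gave between -0.74, without shNC replicate 3, and -0.97, without knockdown replicate 2.

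The fit without the block called 0 genes (0%) at an adjusted p of 0.05 over all 12959, with 400 at an unadjusted p under 0.05, and DESeq2's Wald test called 12. With the block it called 110 genes (0.849%), of which 94 (0.725%) were lower in the knockdown. Since the 8 genes were chosen with this comparison known, no call is read for them. GRN had the 28th lowest log2 fold change of the 12959 genes and the 23rd lowest with the block. In 26 of the 12959 genes the knockdown was lower by at least 0.5 on the log2 scale in all 3 pairs. GRN was among the 5 of them with a mean above 25 FPKM. The other 4 were PLEK2 itself, TYMS (thymidylate synthase), NIPSNAP1 and ARL2BP. Both levels, 0.5 and 25 FPKM, were set with the values of GRN known. GRN was chosen for its lower counts in this comparison, so that its ranks and its place among these genes restate that choice.

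**Figure D1:**
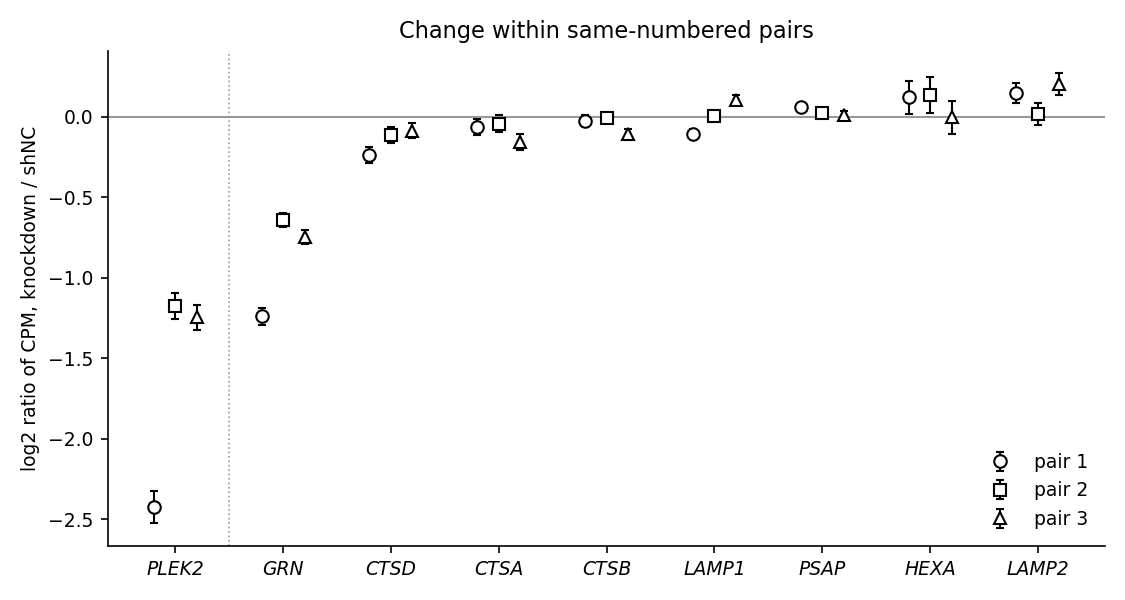
Log2 ratio of CPM, knockdown over shNC, within each of the 3 same-numbered pairs (circle, square and triangle for pairs 1 to 3), for PLEK2 and the 8 lysosomal genes, with bars for the counting error. GRN lies between -1.24 and -0.64, below 0 in every pair, while the other 7 genes lie between -0.24 and 0.20.

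Levels of different genes were compared per length, in FPKM. Over the 6 libraries, PSAP had the highest mean (182 FPKM), followed by LAMP1 (109), CTSB (66.8), GRN (66.3), CTSD (62.6), CTSA (38.4), LAMP2 (15.2) and HEXA (9.73). In shNC libraries GRN was the third of the 8, at 84.1 ± 11.5 FPKM (SD, n = 3), and in knockdown libraries the fifth, at 48.5 ± 14.9 FPKM. Its shNC range of 71.3 to 93.7 FPKM met that of CTSB, 63.9 to 71.6 FPKM, which in turn overlapped that of CTSD, 57.8 to 70.3 FPKM. In the knockdown libraries GRN, at 31.4 to 57.3 FPKM, overlapped both CTSD, at 51.0 to 67.4 FPKM, and CTSA, at 36.9 to 38.5 FPKM. These neighbours were therefore not separated beyond their spread. PSAP, LAMP1, LAMP2 and HEXA kept their places in both groups, and their ranges did not touch those of any neighbour. GRN also varied most between libraries, with a coefficient of variation of its CPM of 13.4% in shNC and 31.2% in knockdown, against 1.42% to 10.6% and 1.99% to 14.6% for the other 7 genes.

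**Figure D2:**
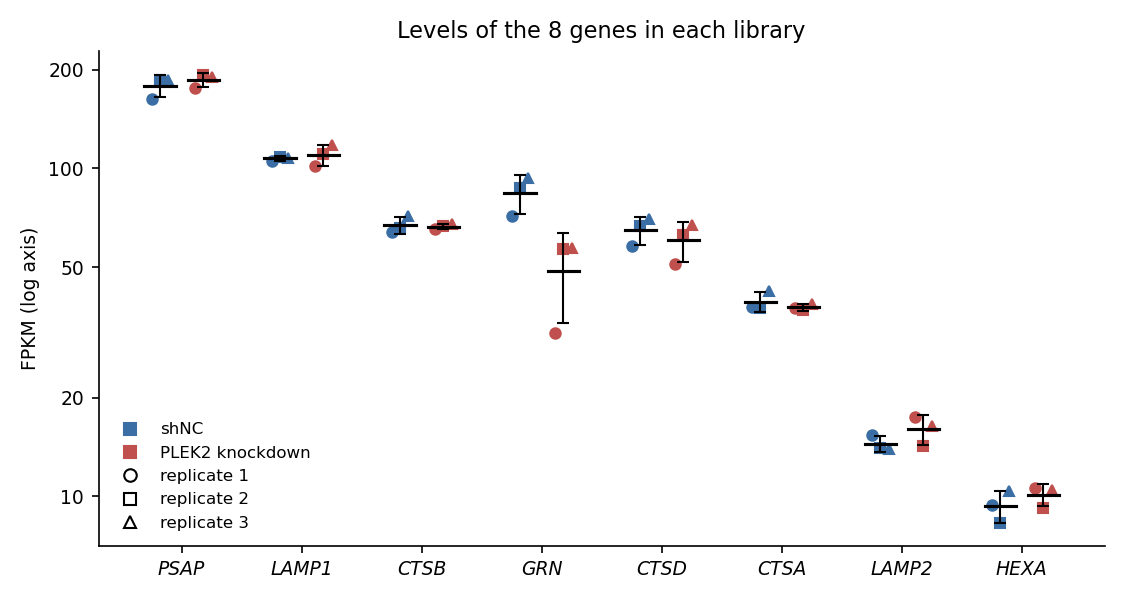
FPKM of the 8 genes in each library on a log axis, in blue for shNC and red for PLEK2 knockdown, with the replicate number as the marker shape and the mean ± SD (n = 3) in black. GRN, at 71.3 to 93.7 FPKM in shNC and 31.4 to 57.3 FPKM in knockdown libraries, is the single gene of the 8 whose groups do not overlap. By CPM, groups did not overlap in 5.12% of all genes tested with the knockdown lower and in 4.08% with it higher.

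PSAP encodes prosaposin, which is cut into saposins that present sphingolipids to their hydrolases and which also carries progranulin to the lysosome. PSAP (chr10:71816298-71851251, minus strand) was at 455, 519 and 514 CPM in shNC and at 474, 527 and 518 CPM in knockdown libraries. The groups overlapped, replicate 1 was the lowest library of each, and the log2 ratios within pairs were 0.058, 0.023 and 0.011. The fitted log2 fold change was 0.030 (SE 0.0835). The partner of progranulin in lysosomal delivery was thus at 101% to 104% of its shNC level within pairs, while GRN was at 42.4% to 64.3%. Scaled by library totals in place of TMM factors, the log2 ratio of PSAP in pair 1 was 0.111.

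Of the proteases, CTSD came closest to the profile of GRN. CTSD encodes cathepsin D, the main aspartic protease of the lysosome. The gene (chr11:1752752-1764573, minus strand) overlaps an unnamed coding gene on its own strand, and reads of the pair cannot be told apart where they overlap. Its libraries held 116, 134 and 140 CPM in shNC and 98.9, 124 and 132 CPM in knockdown, with means of 130 ± 12.3 and 118 ± 17.3 CPM (SD, n = 3 each). The groups overlapped, although the knockdown library was the lower one in every pair, at log2 ratios of -0.24, -0.11 and -0.085. The fitted log2 fold change was -0.14 (SE 0.122), -0.14 (SE 0.0556) with the block, and -0.093 (SE 0.0550) with the block and without replicate 1.

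CTSB encodes cathepsin B, a cysteine protease. CTSB was at 238, 245 and 264 CPM in shNC and at 234, 244 and 245 CPM in knockdown libraries. The groups overlapped, although the knockdown library was the lower one in every pair, at log2 ratios of -0.025, -0.0050 and -0.11. Scaled by library totals, the ratios of CTSB in pairs 1 and 2 were 0.0283 and 0.0176. The fitted log2 fold change was -0.047 (SE 0.0742). CTSA encodes the serine carboxypeptidase known as protective protein, which stabilises lysosomal beta-galactosidase and neuraminidase. CTSA was at 112, 111 and 124 CPM in shNC and at 107, 107 and 111 CPM in knockdown libraries. The groups overlapped through knockdown replicate 3 alone, which lay just above shNC replicate 2. The knockdown library was the lower one in every pair, at log2 ratios of -0.061, -0.042 and -0.16. The fitted log2 fold change was -0.089 (SE 0.0797). The counts of CTSA were not whole in any library, so that some of its reads were divided by the counting program, and the gene (chr20:45890144-45898949, plus strand) overlaps NEURL2 and PLTP on the other strand, whose reads cannot be told apart from its own because no use of strand is stated.

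HEXA (chr15:72340924-72376420, minus strand), which overlaps the antisense gene HEXA-AS1 and an unnamed coding gene on its own strand, encodes the alpha subunit of beta-hexosaminidase, an enzyme that degrades GM2 ganglioside. With 309 to 424 counts per library it was the least abundant of the 8 genes, at 24.8, 21.8 and 27.0 CPM in shNC and 27.0, 23.9 and 26.9 CPM in knockdown libraries. The groups overlapped, and the fitted log2 fold change was 0.080 (SE 0.115). Counting error alone was 0.102 to 0.112 on the log2 scale within pairs, so that a change of that size was not detectable in a single pair.

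LAMP1 and LAMP2 encode the heavily glycosylated proteins that line the inner face of the lysosomal membrane. LAMP1 (chr13:113297239-113323672, plus strand) was at 257, 264 and 260 CPM in shNC and at 238, 265 and 280 CPM in knockdown libraries. Its knockdown libraries lay on both sides of the shNC range, with log2 ratios within pairs of -0.11, 0.0053 and 0.11 and a fitted log2 fold change of 0.0043 (SE 0.0810). LAMP2 (chrX:120426148-120469365, minus strand) was at 65.6, 58.7 and 58.6 CPM in shNC and at 72.7, 59.3 and 67.4 CPM in knockdown libraries. The groups overlapped, yet the knockdown library was the higher one in every pair, at 0.15, 0.016 and 0.20, and the fitted log2 fold change was 0.13 (SE 0.102). LAMP1 counts, like those of CTSA, were not whole in any library. Of the 7 genes besides GRN, 3 (42.9%, against 21.1% of all genes) were lower in all 3 pairs. In 2 of the 7 (28.6%, against 19.9% of all genes) the knockdown was higher in all 3 pairs.

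The other lysosomal genes were read from 7 lists of 124 genes, of which 123 were in the table and 120 passed the filter on low counts. In edgeR's quasi-likelihood test, 0 of the 120 passed an adjusted p of 0.05 without the block, where 0% of all genes did, and 0 passed with the block, where 0.849% of all genes did. DESeq2's Wald test without the block also called 0. A gene that missed this threshold is not thereby shown to be unaltered. At an unadjusted p under 0.05 there were 2 of the 120 (1.67%) without the block, IDUA and EPHA2, against 3.09% of all genes, and 20 (16.7%) with it, against 18.3% of all genes. Their median log2 fold change was 0.0049, beside -0.0021 over all genes tested, and 63 lay above 0 and 57 below. The fitted values ran from -0.46 for IDUA to 0.34 for CTSO, a gene with at most 16 counts in a library, so that 0 of the 120 reached 1.5-fold, against 1.13% of all genes. In 2 genes (1.67%) the knockdown lay below the shNC libraries without overlap and in 7 (5.83%) above them, against 5.12% and 4.08% of all genes. All 3 pairs were higher in the knockdown for 32 genes (26.7%, against 19.9% of all genes) and lower for 14 (11.7%, against 21.1%). Their median standard error was 0.112, and 0.0728 with the block, on the log2 scale.

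**Figure D3:**
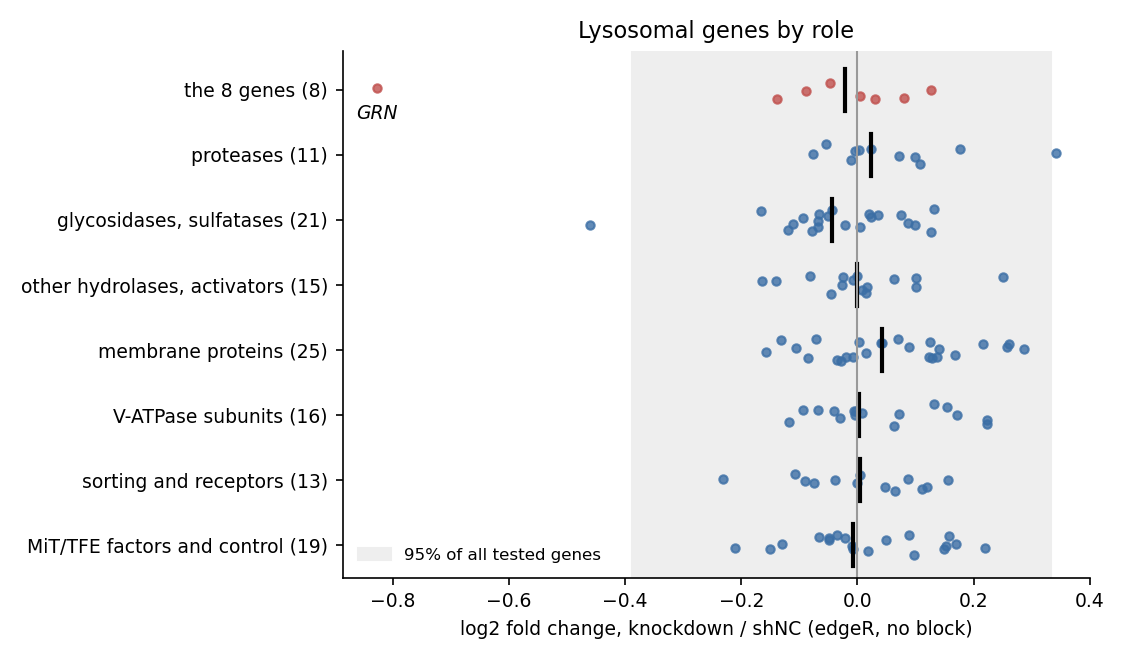
Log2 fold change (edgeR without block) of the 8 genes (red) and of 120 other lysosomal genes in 7 lists (blue), with the number of genes in brackets, black bars for the medians and the grey band for the middle 95% of all tested genes (-0.39 to 0.33). GRN lies at -0.83, outside the band, and the medians of the 7 lists lie between -0.044 and 0.043.

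Among the 11 proteases tested the median log2 fold change was 0.024, and the knockdown was higher in all 3 pairs for 3 and lower for 0. SCPEP1, a serine carboxypeptidase related to CTSA, was at 0.18 (SE 0.127), and CTSL, a cysteine protease that can cut progranulin into granulins, at 0.11 (SE 0.100). Among 21 glycosidases and sulfatases the median was -0.044, with 2 higher and 4 lower in all 3 pairs. IDUA, which degrades heparan and dermatan sulfate, had 70.0, 84.0 and 82.0 counts in shNC and 57.0, 70.0 and 53.0 in knockdown libraries. The knockdown library was the lower one in every pair, although the groups met at 70.0 counts. IDUA had a fitted log2 fold change of -0.46 (SE 0.185, adjusted p = 0.968 in edgeR's test). With the block it was -0.46 (SE 0.162, adjusted p = 0.163). GLB1, the beta-galactosidase behind the senescence stain, was at -0.044 (SE 0.108).

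Among 15 lipid hydrolases, phosphatases, nucleases and activators the median was -0.00087, with 4 higher and 2 lower in all 3 pairs. LIPA, the acid lipase that frees cholesterol from lipoproteins, was at 34.2, 28.9 and 30.8 CPM in shNC and 41.5, 31.9 and 38.4 CPM in knockdown libraries. Its log2 fold change was 0.25 (SE 0.124, adjusted p = 0.968 in edgeR's test), and 0.25 (SE 0.0709, adjusted p = 0.103) with the block. PLD3, an exonuclease of the lysosome, was at -0.16 (SE 0.154). Among 25 membrane proteins the median was 0.043, and 10 (40.0%, against 19.9% of all genes) were higher in all 3 pairs. The knockdown was lower in all 3 pairs for 3 (12%, against 21.1%). At an unadjusted p under 0.05 with the block in edgeR's test there were 6 (24%, against 18.3% of all genes). LAPTM4A was at 0.17 (SE 0.0878) and MFSD8, whose loss causes a ceroid lipofuscinosis, at 0.29 (SE 0.176). TMEM106B, a modifier of the dementia caused by GRN loss, was at 38.8, 32.4 and 23.2 CPM in shNC and 56.9, 27.1 and 29.0 CPM in knockdown libraries. Its pairs went in both directions, at 0.55, -0.26 and 0.32, and knockdown replicate 1 held the highest value.

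Among 16 subunits of the V-ATPase, the proton pump that acidifies the lysosome, 0 passed the adjusted threshold and the median was 0.0029. At an unadjusted p under 0.05 with the block there were 5 of the 16 (31.2%, against 18.3% of all genes), led by ATP6V1C1 and ATP6V1G1. ATP6V1C1 was at 118, 93.0 and 88.1 CPM in shNC and 144, 103 and 102 CPM in knockdown libraries, higher in every pair although the groups overlapped. Its log2 fold change was 0.22 (SE 0.161, adjusted p = 0.968 in edgeR's test), and 0.22 (SE 0.056, adjusted p = 0.083) with the block. ATP6V1G1 was at 66.2, 57.9 and 60.7 CPM in shNC and 80.7, 68.0 and 67.0 CPM in knockdown libraries, without overlap. Its log2 fold change was 0.22 (SE 0.103, adjusted p = 0.968 in edgeR's test), and 0.22 (SE 0.0593, adjusted p = 0.0936) with the block.

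Among 13 sorting factors and receptors the median was 0.0046, with 3 higher and 2 lower in all 3 pairs. SORT1, which encodes sortilin, was at 45.4, 42.1 and 37.5 CPM in shNC and 46.9, 44.7 and 47.6 CPM in knockdown libraries. Its log2 fold change was 0.16 (SE 0.0990, adjusted p = 0.968 in edgeR's test), and 0.16 (SE 0.0722, adjusted p = 0.269) with the block. LRP1, which takes up prosaposin together with progranulin, was at 0.0046 (SE 0.127). SURF4, a cargo receptor for export from the endoplasmic reticulum, was at -0.0015 (SE 0.0864). M6PR, a mannose 6-phosphate receptor that sorts hydrolases, was at 0.12 (SE 0.0734). EPHA2, a receptor tyrosine kinase to which progranulin can bind, was at 138, 123 and 132 CPM in shNC and 101, 115 and 119 CPM in knockdown libraries, without overlap. Its log2 fold change was -0.23 (SE 0.0914, adjusted p = 0.968 in edgeR's test), and -0.23 (SE 0.0684, adjusted p = 0.111) with the block. SLPI, an inhibitor that shields progranulin from elastase, had 4 to 8 counts per library and was not tested.

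Among 19 genes of the MiT/TFE factors and their control on the lysosome the median was -0.0072, with 5 higher and 2 lower in all 3 pairs. TFEB was at 6.78, 6.78 and 7.75 CPM in shNC and 6.42, 7.42 and 6.75 CPM in knockdown libraries, a log2 fold change of -0.049 (SE 0.141), and TFE3 was at -0.067 (SE 0.119). MLST8, a subunit of the mTOR complexes, was at -0.21 (SE 0.112, adjusted p = 0.968 in edgeR's test), and at -0.21 (SE 0.0609, adjusted p = 0.103) with the block. RRAGD, a GTPase that recruits mTOR to the lysosome, was at 0.16 (SE 0.0946) without the block. Of the other lysosomal genes with a promoter window, 27 held CACGTG or TCACATGA and had a median log2 fold change of -0.00087, and 67 held neither and had a median of -0.0015. The 6 with TCACATGA, the motif of the GRN window, had a median of 0.0093, and the 88 tested genes with it among all promoters a median of 0.019.

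The 5 genes whose levels followed GRN most closely over the 6 libraries were not members of the lysosomal lists. Likeness was measured as Pearson's r of log2 CPM with GRN among 10160 genes with a mean log2 CPM over 3, and is a description, since all genes share the same libraries and the 6 points hold both the group difference and the deviation of replicate 1. The 5 highest were POLD1, a subunit of DNA polymerase delta (r = 0.997), MCRS1 (0.997), the glycolytic enzyme ENO1 (0.995), the zinc transporter SLC39A11 (0.995) and the mitochondrial ATPase ATAD3A (0.995), and 137 genes had r over 0.95. Their changes were smaller than that of GRN, with log2 ratios in pairs 1 to 3 of -0.35, -0.23 and -0.24 for POLD1 and of -0.52, -0.30 and -0.26 for MCRS1. PLEK2 had r = 0.949, the 139th highest. Of the other 7 genes, CTSD was the closest (r = 0.860), followed by CTSB (0.707), CTSA (0.685), LAMP1 (0.523) and PSAP (0.325), while HEXA (-0.411) and LAMP2 (-0.825) went the other way.

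**Figure D4:**
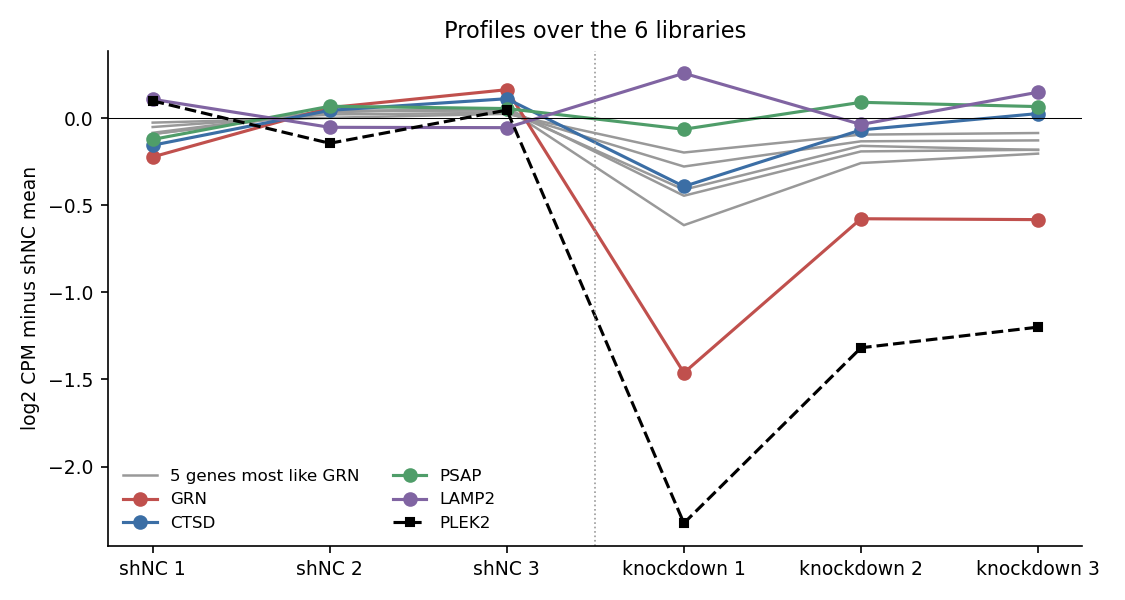
Log2 CPM in each library minus the mean of the 3 shNC libraries, for GRN, CTSD, PSAP, LAMP2, PLEK2 (dashed) and the 5 genes most like GRN (grey). PLEK2, GRN, CTSD and all 5 grey lines reach their lowest point in knockdown replicate 1, where PSAP is also at its lowest knockdown value and LAMP2 is at its highest.

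The hairpin sequence is shown because an shRNA can lower transcripts other than its target through its seed. The guide strand was taken as the reverse complement of the listed target, and capitals mark its seed, bases 2 to 8.
PLEK2 shRNA guide: tCAAGCTTgtagtacaccagc
The site that pairs with this seed was found 0 times in the GRN transcript of 2130 bases (MANE Select, GENCODE 44). It occurred once in PLEK2, in 2 places in CTSB, and once each in CTSD and HEXA, and 19.2% of 15865 transcripts held it. The longest stretch that GRN shared with the 21-base target was 8 bases, a length that 41.6% of the transcripts reached or passed. The GRN transcript searched thus held no match to this 7-letter seed site. The other strand of the hairpin and shorter seed sites were not searched. The part of the hairpin in the lower level of GRN was not tested.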

How the data were processed

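Poly(A) RNA of HCT116 cells was sequenced on a DNBSEQ instrument as single-end 50-base reads. The submitters' processing notes name HISAT2 2.0.4, Bowtie2 2.2.5, RSEM 1.2.12 and DESeq2 1.4.5, and a mouse build (GRCm38.p6), although the table holds human gene IDs and symbols. The build behind the counts is thus uncertain, and gene positions were taken from GENCODE 44 on GRCh38. The authors deposited estimated counts per gene, not normalized and not always whole, and length-scaled values without a stated unit, read as FPKM because the depth they imply over 8183 genes followed the library totals. The deposited group means were not used, and 0 per-sample columns were left unassigned.

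Counts were rounded and fitted with edgeR 4.0.16 (R 4.3.3; TMM factors 0.984 to 1.021, filterByExpr defaults, quasi-likelihood test, Benjamini-Hochberg adjustment over 12959 genes), without a block, since the study names unpaired tests. The fit was tested on simulated data. Replicate numbers were taken to pair the libraries, because each shNC library and its same-numbered knockdown library departed from their groups in like ways (r = 0.736, 0.558 and 0.554 over 10161 genes). Combinations of replicate 1 with another number gave r of -0.629 to -0.551. Deviations were taken from the mean of each group and so cancel out within it. The negative r of these combinations therefore largely follows from replicate 1 deviating alike in both groups, and adds little on the pairing. Replicates 2 and 3 crossed gave 0.358 and 0.355, so that their own pairing rests on a smaller gap. Alternatives were the block, DESeq2 1.42.0, limma 3.58.1 on log2(FPKM + 1), other scalings and filters, and leaving out libraries. With 3 libraries against 3, an exact permutation test of a single value cannot go below 0.1 (two-sided), so none is given.

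The genes, lists and tests were chosen with earlier results of these data known. Genes were named if they were 1 of the 8, PLEK2, past an adjusted p of 0.05 in a list or else 1 of the 2 with the smallest p with the block in their list, 1 of 9 genes known for progranulin biology, lysosomal control or the senescence stain, or 1 of the 5 most like GRN. Some genes named by this rule are not reported here. CTSO, TYMS, NIPSNAP1, ARL2BP, COL1A1 and VIL1 were named after their values were seen. GALC had no row in the table, and CTSF, CTSS and SLPI were below the filter. Sequences came from RefSeq and GENCODE, read with Python 3.11.15.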

Additional observations from a re-analysis of the deposited data

How the results depend on the processing

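GRN kept its direction under every alternative run, with log2 fold changes of -0.59 (without knockdown replicate 1) to -0.97. CTSB, LAMP1 and PSAP, all near 0, changed sign when single libraries were left out (-0.066 to 0.0059, -0.048 to 0.066 and -0.017 to 0.076), and the other 4 genes kept theirs. The count of all genes past an adjusted p of 0.05, 0 without the block, was 12 with DESeq2 and 110 with the replicate block, and 0 to 1 when single libraries were left out. With the block it was 18 to 528 when a replicate number was left out of both groups, 528 of them without replicate 1, 18 without replicate 2 and 297 without replicate 3. Chosen after seeing the data, the block gave 192 with library totals and 57 with DESeq2. Of the other lysosomal genes, 0 passed except ATP6V1C1 with the block and library totals (1 gene, log2 fold change 0.25, adjusted p = 0.0471) and PLD3 with the block and without replicate 1 (1 gene, -0.22, adjusted p = 0.0268), both in edgeR's test, and leaving out single libraries without the block gave 0.

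The medians of the lists are small and moved with the scaling. With library totals, which moved the median of all genes to 0.0291, they were 0.0293 for lipid hydrolases and the like, 0.0743 for membrane proteins, 0.0328 for V-ATPase subunits and 0.0235 for MiT/TFE factors. With the block added these were 0.029, 0.073, 0.0348 and 0.023, and with limma on log2(FPKM + 1) 0.0272, 0.0725, 0.04 and 0.0507. When single libraries were left out, the medians ranged from 0.00682 to 0.0647 for proteases, -0.0987 to 0.0343 for glycosidases and sulfatases, -0.0421 to 0.0347 for lipid hydrolases and the like, 0.0214 to 0.102 for membrane proteins, -0.00662 to 0.0765 for V-ATPase subunits, -0.0101 to 0.0821 for sorting and receptors and -0.0339 to 0.0496 for MiT/TFE factors. With the block and a replicate number left out of both groups, the ranges were 0.00122 to 0.0284 for lipid hydrolases and the like, 0.0291 to 0.102 for membrane proteins, with 0.0788 without replicate 3, 0.00955 to 0.0501 for V-ATPase subunits, with 0.0409 without replicate 1, 0.00973 to 0.0788 for sorting and receptors, and 0.00206 to 0.0426 for MiT/TFE factors, with 0.027 without replicate 2. The cause was not tested. The log2 ratio of PSAP in pair 1 was 0.111 with library totals and 0.113 from FPKM. Of the 5 genes most like GRN, 3 stayed among the 5 highest with library totals and 1 with Spearman's rho, where 44 genes tied at a rho of 1.

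The replicate block alone changed the call of 0 other lysosomal genes. Depth limited the genes with few counts, such as IDUA, CTSO and SLPI, and counting errors cover counting alone.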
